A study of Mus musculus with 8 samples.

Results

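The 10 genes examined here encode the subunits of the transcription factor NF-κB (Rela, Relb, Rel, Nfkb1 and Nfkb2) and proteins that act on it. Nfkbia, Nfkbib, Nfkbie and Tnfaip3 encode inhibitors that hold it back or are induced by it as negative feedback. Nfkbiz encodes a nuclear IκB protein that works with NF-κB on secondary response genes. All 10 genes were chosen by name: every probe of the array whose gene symbol, after trimming, was one of these names was taken, and the rule uses no measured value. The table held 11 such probes among 25697 probes with 18138 different symbols. 9 of the 11, 1 for each of 9 genes, passed the filter on detection and were tested together with the other probes that passed, 10414 in all.

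NF-κB subunits wait in the cytoplasm as dimers bound to IκB proteins. Signals from TNF, IL-1 and Toll-like receptors activate the IκB kinase complex, the IκB proteins are degraded, and the dimers enter the nucleus, where they switch on cytokines, chemokines, survival genes and their own inhibitors. Freshly made IκBα, the product of Nfkbia, and the ubiquitin-editing enzyme A20, the product of Tnfaip3, then shut the signal down, so that the transcripts of both genes are widely used as a readout of recent NF-κB activity. In skin fibroblasts this pathway drives the inflammatory cytokines that are also part of the secretory profile of senescent cells.

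RNA came from primary skin fibroblasts, taken at passage 1 by the study's methods, of 12-month-old mice of a pair of conplastic strains, which share the nuclear genome of C57BL/6J and differ in the mitochondrial DNA they carry. The Nd2-mutant strain, C57BL/6J-mtALR/LtJ, has a mutation in Nd2, a subunit of complex I encoded by mitochondrial DNA, and C57BL/6J-mtAKR/J served as control. No treatment is named in the labels for any of the cultures, and both strains were grown in the same medium with serum. Each strain was represented by 4 mice with 1 MouseRef-8 v2.0 array per mouse: mice 28 and 32 (male) and 34 and 35 (female) were Nd2-mutant, and mice 16 and 17 (male) and 15 and 37 (female) were controls. The question was whether the mitochondrial mutation goes along with another state of NF-κB gene expression in the fibroblasts. The values are background-subtracted, quantile-normalized intensities on a linear scale, and an intensity compares mice for 1 probe but not 1 gene with another. Differences are given as Nd2-mutant minus control on the log2 scale of the intensity plus 16.

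A probe counted as detected on an array at a detection p-value under 0.01, which held for between 10663 and 11350 probes per array. All 11 fibroblast markers on the array, such as Col1a1, Pdgfra and Thy1, were detected on all 8 arrays. Of 6 T cell markers, 5 were detected on no array. The array of control mouse 15 stood apart, with a mean correlation of 0.934 with the others over the tested probes, against 0.963 to 0.974 for each of the other 7. The summed intensity of 8 endothelial markers was highest in the same mouse, at 794, and lay between 263 and 454 in the other controls and between 153 and 299 in the Nd2-mutant mice. Of these markers, Pecam1, Esam, Emcn and Tek were detected on all 8 arrays, Cdh5 on 7, Vwf on 4, Tie1 on 1 and Kdr on 0, and Emcn was lower in each mutant (50.9 to 124) than in any control (125 to 272). The summed intensity of 13 macrophage markers was 2167 in Nd2-mutant mouse 35 and between 353 and 825 in the other 7 mice, with the leukocyte marker Ptprc detected on no array. That of 6 smooth muscle markers was lower in each Nd2-mutant mouse (12470 to 15100) than in any control (15540 to 17580). Each of its 5 tested genes overlapped between the strains, Acta2 (10060 to 13940 against 11600 to 13940) and Actg2 (752 to 1875 against 1452 to 4299) included. The top Acta2 value of both strains is the largest intensity that the normalized arrays hold. All 5 genes had a lower mean log2 intensity in the mutants, with a median difference of -0.63. An unadjusted p under 0.05 with limma was found for 2 of the 5, against 7.63% of all tested probes. The part of these cell types in the results below was not tested. In these bulk samples, fewer cells of a type and less RNA per cell cannot be told apart.

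The promoters of the genes that the results below turn on are shown first, because NF-κB regulates several of its own genes and the sequences show the letters it recognises. The 250 bases before the annotated start of Nfkbia and Tnfaip3, whose intensities varied together, and of Nfkb2, the member with the smallest p between the strains, were read from RefSeq (GRCm38.p6), 5′ to 3′ on the strand of the gene. Capitals mark each match, on either strand, to the NF-κB consensus of 10 bases. Several starts are annotated for Tnfaip3 and Nfkb2, and the one with most matches is shown for each. The other Tnfaip3 window holds no match.
Nfkbia, chr12:55492648-55492897, minus strand: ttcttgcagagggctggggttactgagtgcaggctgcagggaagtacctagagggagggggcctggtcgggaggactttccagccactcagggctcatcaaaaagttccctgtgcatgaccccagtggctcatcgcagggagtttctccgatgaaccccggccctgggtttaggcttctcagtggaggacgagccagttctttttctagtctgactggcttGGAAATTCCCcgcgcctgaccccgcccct
Tnfaip3, chr10:19015411-19015660, minus strand: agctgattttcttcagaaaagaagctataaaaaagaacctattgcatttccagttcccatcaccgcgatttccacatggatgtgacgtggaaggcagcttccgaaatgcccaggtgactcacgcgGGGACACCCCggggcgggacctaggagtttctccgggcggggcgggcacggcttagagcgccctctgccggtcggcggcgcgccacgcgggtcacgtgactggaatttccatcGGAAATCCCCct
Nfkb2, chr19:46304487-46304736, plus strand: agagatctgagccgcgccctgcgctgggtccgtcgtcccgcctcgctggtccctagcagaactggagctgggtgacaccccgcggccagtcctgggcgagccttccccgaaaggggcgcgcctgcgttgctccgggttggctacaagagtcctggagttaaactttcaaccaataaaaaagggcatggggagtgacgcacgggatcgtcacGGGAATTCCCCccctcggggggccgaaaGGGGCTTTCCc

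The match of Nfkbia lay 29 to 20 bases before the start. Those of Tnfaip3 lay 125 to 116 and 12 to 3 bases before it, and those of Nfkb2 39 to 29, where a pair of matches overlaps, and 11 to 2 bases before it. RefSeq windows, 10 in all, were at hand for 7 of the 10 genes. A match was present in 7 of the 10 windows and in at least 1 window of 5 genes (Nfkbia, Tnfaip3, Nfkb2, Nfkbie and Rel, the last at 92 to 82 bases before the start), and the windows of Rela and Nfkbib held none. Over all 32851 promoter windows of this length, 7.25% held a match. A match describes letters only, and binding was not measured. Nfkb1, Relb and Nfkbiz have no entry in the table.

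Between the strains, no member passed the threshold after adjustment, as was true of every tested probe (0% called, 0 of 10414, smallest adjusted p = 0.639 with limma). At an unadjusted p under 0.05, 1 of 9 members (Nfkb2) differed, against 7.63% of all tested probes (795 of 10414). Which member it was depended on the fit: with sex as a term it was Tnfaip3 (unadjusted p = 0.0484 with limma) in place of Nfkb2 (0.0550), and without mutant mouse 28 likewise Tnfaip3 (0.0333) in place of Nfkb2 (0.0875). The 4 values of the strains overlapped for all 9 members, whereas 4.37% of all tested probes (455) showed no overlap. 7 of the 9 members had a lower mean log2 intensity in Nd2-mutant fibroblasts, with a median difference of -0.30, and 49.8% of all tested probes were lower, with a median of 0.00. Without control mouse 15 the members' median was -0.24, and 6 of 9 were lower.

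**Figure D1:**
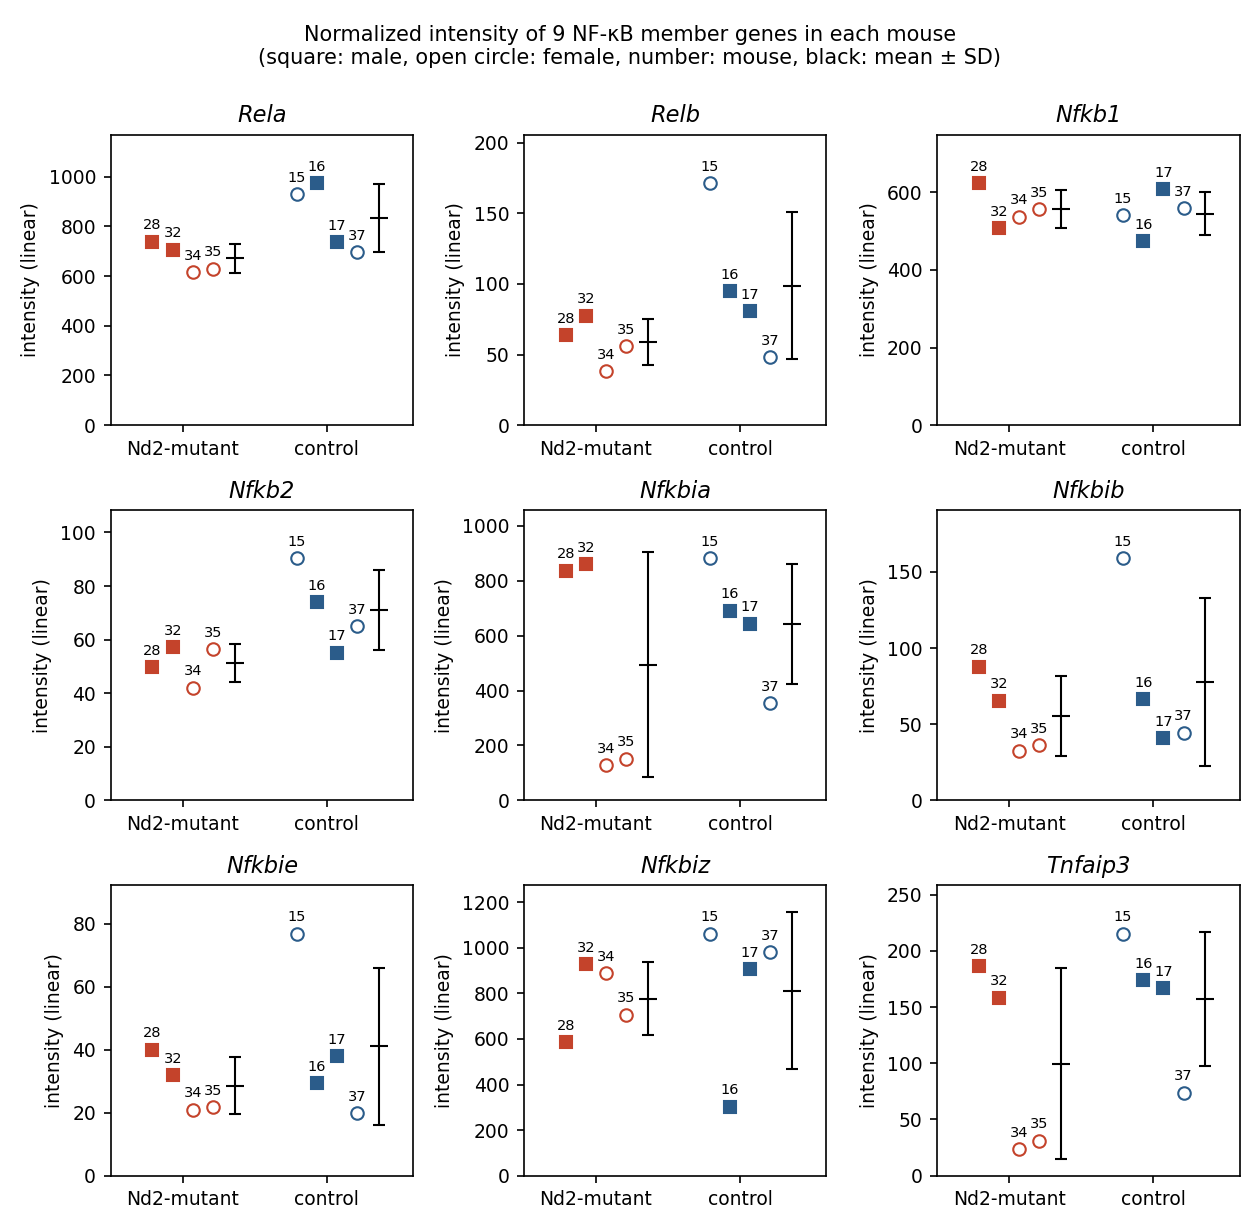
Normalized intensity (linear, y axis from 0) of the 9 tested members in each mouse, in 1 panel per gene. Filled squares are males, open circles females, numbers name the mouse and black bars are the mean ± SD of the 4 mice of a strain. Both Nd2-mutant females (34 and 35) had lower Nfkbia and Tnfaip3 than the other 6 mice. Control mouse 15 had the highest Relb, Nfkb2, Nfkbia, Nfkbib, Nfkbie, Nfkbiz and Tnfaip3.

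Among the subunits, Rela, the main transactivating partner of the canonical pathway (chromosome 19, ILMN_2740859), had intensities of 737, 705, 616 and 630 in Nd2-mutant mice 28, 32, 34 and 35. It had 929, 974, 736 and 697 in control mice 15, 16, 17 and 37. All 4 mutants lay below the mean of the controls, but control mice 17 and 37 lay within the range of the mutants. The means were 672 ± 58.7 (SD, n = 4) and 834 ± 138 (SD, n = 4), a log2 difference of -0.29 (standard error 0.15, 95% interval -0.64 to 0.05, adjusted p = 0.639 with limma). Control mice 15 and 16 were the higher of the 4 controls, and without either of them the difference was -0.24 and -0.22.

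Relb, the partner of the processed Nfkb2 product in the non-canonical pathway (chromosome 7, ILMN_1246841), had intensities of 63.6, 77.5, 38.2 and 56.1 in the Nd2-mutant mice in the same order. The control mice 15, 16, 17 and 37 had 171, 94.8, 80.8 and 48.2. Control mouse 15 was far above all others, and control mouse 37 lay within the range of the mutants. The log2 difference was -0.54 (standard error 0.30, 95% interval -1.19 to 0.12, adjusted p = 0.648 with limma), and it was -0.27 without control mouse 15.

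Nfkb2, the precursor that is cut to the DNA-binding subunit of the non-canonical pathway (ILMN_2642239), had intensities of 49.7, 57.2, 42.1 and 56.5 in the mutants. The controls had 90.3, 74.0, 55.1 and 65.0. All 4 mutants lay below the mean of the controls, and the overlap was due to control mouse 17, which lay below mutants 32 and 35. The means were 51.4 ± 7.04 (SD, n = 4) and 71.1 ± 14.96 (SD, n = 4), and the log2 difference was -0.36 (standard error 0.16, 95% interval -0.72 to -0.01). Its unadjusted p of 0.0467 with limma became 0.639 after adjustment, and the exact permutation test gave p = 0.0857, where 4 against 4 values cannot go below 0.0286. Without control mouse 15 the difference was -0.26.

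Nfkb1, the precursor of the DNA-binding subunit of the canonical dimer (chromosome 3, ILMN_2592476), had the narrowest interval of the 9 members. Its intensities ran from 508 to 624 in the mutants and from 474 to 608 in the controls. The log2 difference of 0.03 had a 95% interval from -0.27 to 0.33 (limma), and it fell below 0 without mutant mouse 28 or control mouse 16 (-0.03 each), with array weights (-0.03) and in females (-0.01). Rel, the subunit best known from lymphoid cells (chromosome 11, ILMN_2659408), was detected in mutant mouse 28 and control mouse 37 alone, with 10.9 and 15.3, and was not tested.

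Of the classical inhibitors, Nfkbia (IκBα, chromosome 12, ILMN_3001914) had intensities of 836 and 860 in the Nd2-mutant males 28 and 32 but 128 and 152 in the Nd2-mutant females 34 and 35. The controls had 690 and 644 in males 16 and 17 and 881 and 353 in females 15 and 37. The mutants thus fell into a high and a low pair by sex: the males lay above 3 of the 4 controls and the females below all of them. Over all mice the means were 494 ± 409 (SD, n = 4) in the mutants and 642 ± 218 (SD, n = 4) in the controls, a log2 difference of -0.77 (standard error 0.59, 95% interval -2.09 to 0.54, adjusted p = 0.708 with limma). Leaving out 1 mouse moved it from -1.19 (without mutant male 32) to -0.33 (without mutant female 34).

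Nfkbib (IκBβ, ILMN_2612007) had 87.9, 65.3, 32.4 and 36.2 in mutants 28, 32, 34 and 35. Controls 15, 16, 17 and 37 had 159, 66.5, 40.9 and 44.3. Control mouse 15 was the highest, and the strains otherwise overlapped. The log2 difference was -0.30 (95% interval -1.11 to 0.50, adjusted p = 0.810 with limma), and it became 0.05 without control mouse 15, 0.04 with array weights and 0.42 in males.

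Nfkbie (IκBε, chromosome 17) had 2 probes. The first (ILMN_2690551) had 40.0, 31.8, 20.9 and 21.8 in the mutants and 76.8, 29.4, 38.0 and 19.9 in controls 15, 16, 17 and 37. Mouse 15 was again above all others. The log2 difference was -0.28 (95% interval -0.89 to 0.32, adjusted p = 0.763 with limma) and -0.02 without control mouse 15, with 0.06 in males. The second (ILMN_1238752) was detected on 0 arrays, with intensities from -3.76 to 5.31.

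The nuclear IκB protein Nfkbiz (IκBζ, chromosome 16, ILMN_2755008), which works with NF-κB on secondary response genes such as Il6, ran from 585 to 928 in the mutants. The controls had 1062, 905 and 980 in mice 15, 17 and 37 and 303 in mouse 16. The sign rested on single mice: the log2 difference was 0.06 (95% interval -0.73 to 0.84, adjusted p = 0.969 with limma) and -0.35 without control mouse 16. It was also below 0 without mutant mouse 32 (-0.03) or 34 (-0.01), with array weights (-0.01) and in females (-0.36), and on the linear scale the mutant mean was 35.7 intensity units below that of the controls.

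Tnfaip3 (A20, chromosome 10, ILMN_1252202), which removes the ubiquitin chains that carry the signal to the IκB kinase complex, had 186 and 158 in the Nd2-mutant males 28 and 32. It had 23.3 and 31.2 in the Nd2-mutant females 34 and 35. In the controls it was 174 and 167 in males 16 and 17 and 215 and 73.9 in females 15 and 37. As for Nfkbia, both mutant females were below every other mouse, and the mutant males lay among the controls. The means were 99.8 ± 84.6 (SD, n = 4) and 157 ± 59.6 (SD, n = 4), a log2 difference of -0.87 (standard error 0.53, 95% interval -2.04 to 0.31, adjusted p = 0.666 with limma). Leaving out 1 mouse moved it from -1.26 (without mutant male 28, unadjusted p = 0.0333 with limma) to -0.47 (without mutant female 34).

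Since males and females differed in several members, the strain difference was set against sex in a fit of 4 groups of 2 mice. For Nfkbia the strain difference was 0.34 in males (95% interval -0.50 to 1.18) and -1.89 in females (95% interval -2.73 to -1.05) on the log2 scale, and these intervals did not overlap. The male minus female difference was 2.23 (standard error 0.52), with an unadjusted p of 0.00239 with limma that became 0.9999 after adjustment over all probes. For Tnfaip3 the strain difference was 0.01 in males and -1.74 in females, and the male minus female difference was 1.76 (standard error 0.55, unadjusted p = 0.0121 with limma, adjusted p = 0.9999). For Nfkbib these values were 0.42, -1.03 and 1.45 (standard error 0.63, unadjusted p = 0.0490 with limma, adjusted p = 0.9999). Without control female 15 the male minus female difference was 1.07 for Tnfaip3 and 0.69 for Nfkbib, and without control female 37 it was 2.44 and 2.22. The unadjusted p was under 0.05 in 8 of 8 fits without 1 mouse for Tnfaip3 and in 2 of 8 for Nfkbib. No member therefore passed the adjusted threshold, and 1 of all tested probes did (0.0096%). The single exception among the alternatives was the fit without control female 37, in which the Nfkbia value was 2.87 with an adjusted p of 0.0328 with limma, and the remaining control female was assumed to vary like the mice of the other groups. Without control female 15 it was 1.59 (adjusted p = 0.601), and over all alternatives the adjusted p ran from 0.0328 to 1.

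At an unadjusted p under 0.05, 3 of 9 members differed between the sexes in their strain difference, against 1.77% of all tested probes (184). The male minus female difference was above 0 for all 9, with a median of 0.69, and for 46.1% of all tested probes, with a median of -0.03. The sign of Nfkb1, Rela and Relb depended on single mice: it fell below 0 without mutant 28 (-0.07) or control 16 (-0.10) for Nfkb1, without control 15 (-0.07) or 17 (-0.06) for Rela and without control 15 (-0.23) for Relb. In females alone, 3 of 9 members (Nfkbia, Tnfaip3 and Nfkbib) were lower at an unadjusted p under 0.05, against 5.48% of all tested probes (571), and all 9 were lower in the mutant, from -0.01 for Nfkb1 to -1.89 for Nfkbia, where 46.9% of all tested probes were lower. In males alone, 0 of 9 members had an unadjusted p under 0.05 with limma, against 2.24% of all tested probes (233), and 3 of 9 were lower, where 52.8% of all tested probes were. These comparisons share the same 8 arrays and rest on 2 mice per group.

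**Figure D2:**
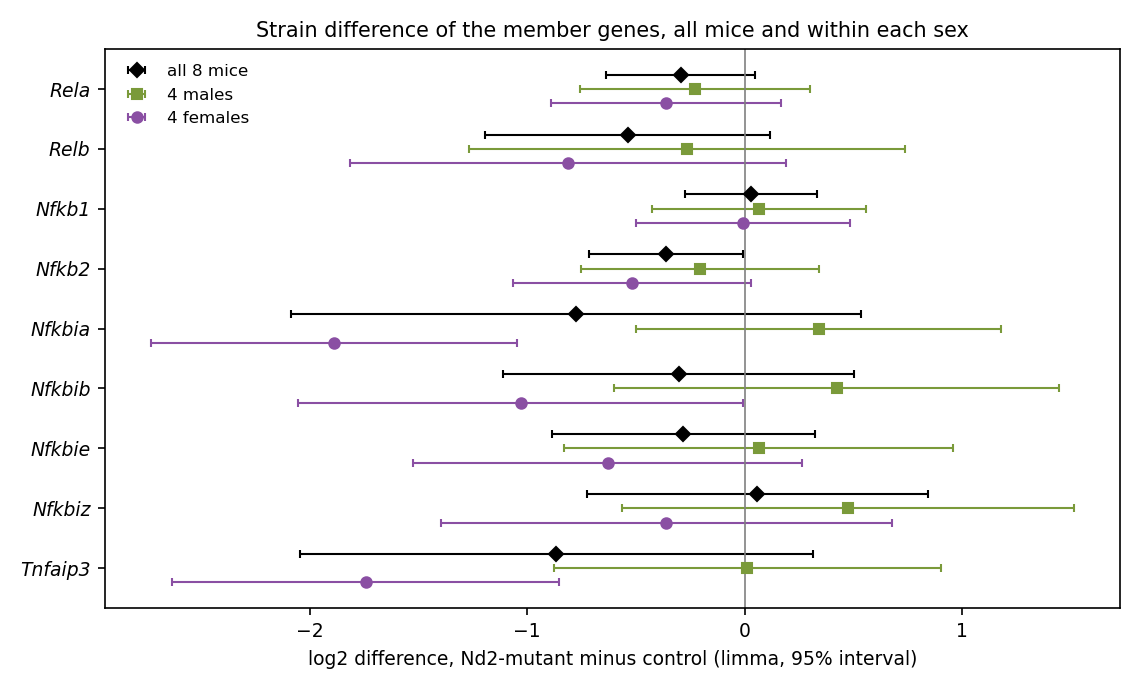
Log2 difference between Nd2-mutant and control fibroblasts (x axis, limma) for each tested member over all 8 mice (black), in the 4 males (green) and in the 4 females (purple), with 95% intervals. The intervals of Nfkbia and Tnfaip3 in females lay wholly below 0, while those in males, 0.34 and 0.01 at the centre, spanned it.

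The members differed in how they went together over the 8 arrays, which share the same mice and normalization, so these correlations are given as descriptions. Nfkbia and Tnfaip3 had a Pearson r of 0.99 (Spearman rho 0.86, n = 8) between their log2 intensities. Because the Nd2-mutant females form a low pair of their own, r was also computed over the other 6 mice, where it was 0.94. Relb and Nfkbie had an r of 0.89 (rho 0.76), and 0.69 without control mouse 15. Nfkb1 and Nfkbiz had an r of 0.39 with each other, and with the other members it lay between -0.39 and 0.15 for Nfkb1 and between -0.45 and 0.17 for Nfkbiz. Without control mouse 15, the r of Nfkbiz was -0.81 with Rela and -0.55 with Relb, and that of Nfkb1 was -0.50 with Nfkb2.

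Outside the members, the 5 tested probes most like Nfkbia over the 8 arrays were LOC100048105 (r = 0.99), Pfkm (0.97), Hey1 (0.97), Gadd45b (0.96) and Ppp3ca (0.96). Gadd45b, a stress-induced gene and textbook NF-κB target, had 95.6 and 102 in the Nd2-mutant females and 560 and 370 in the mutant males. Its controls had 501, 432, 287 and 164 in mice 15, 16, 17 and 37. Hey1, a Notch target, had 5.48 and 12.2 in the mutant females and between 106 and 533 in the other 6 mice. These probes were picked for their likeness to Nfkbia, so their low values in the mutant females follow from the choice and add no support. Over the 23 tested NF-κB targets described below, the male minus female difference was above 0 for 13, with a median of 0.19. An unadjusted p under 0.05 with limma was found for 1 of them, against 1.77% of all tested probes. For the 40 other tested pathway genes these values were 22, 0.06 and 0. For Nfkb2 the 5 probes most like it were Plvap (0.98), Nprl2 (0.97), Brd8 (0.97), Chd8 (0.97) and Stat6 (0.96). Plvap, a protein of endothelial fenestrae and caveolae, had 221 in control mouse 15 and between 38.2 and 156 in the other 7 mice.

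Some early response genes, which cells switch on within minutes of serum or stress, were also low in the Nd2-mutant females. Of 18 such genes, 17 were on the array and 12 were tested. Fosb had 1598 and 1720 in the Nd2-mutant males but 121 and 73.8 in the Nd2-mutant females. The controls had 827, 884, 1224 and 1359 in mice 15, 16, 17 and 37, so that both mutant females were below every other mouse. The male minus female difference of the strain effect was above 0 for 11 of the 12 genes, with a median of 1.07, against 46.1% of all tested probes. An unadjusted p under 0.05 with limma was found for 6 (Fos, Fosb, Junb, Atf3, Dusp1 and Zfp36), against 1.77% of all tested probes. The adjusted p with limma was 0.0794 for Fosb and 0.9999 for each of the others. Fos ran from 310 in control mouse 16 to 3896 in control mouse 37, and from 874 to 1642 in the mutants. Atf3 had 2.52 and 15.9 in the mutant females and between 46.3 and 65.7 in the other 6 mice. Atf3 was detected on 3 mutant and 4 control arrays, so it passed the filter only through the controls, where it was higher. It is kept in the counts of this list but adds no support. Dusp1 had 1369 and 1282 in the mutant females and between 2286 and 4826 in the others. Both mutant females were below the other 6 mice for 4 of the 12 genes (Fosb, Atf3, Dusp1 and Klf4). For Klf4 this held for the probe of highest mean alone. On its other tested probes control mouse 15 was lower than both, with 184 against 231 and 268, and 85.5 against 107 and 119. Fos, Jun, Zfp36, Klf2, Egr1, Egr2 and Klf6 in these females lay within the range of the other mice. Junb was 1293 in mouse 34, below all others, and 1862 in mouse 35, above the 1552 of control mouse 16. Jun had a male minus female difference of -0.29. Of the genes that did not pass the filter, Myc had 35.4 and 29.9 in the mutant females and at most 21.8 in the others, and Ier2 had 29.8 and 41.3 in the mutant females, 68.3 in control mouse 15 and at most 9.54 in the other 5 mice. Both mutant females were below the other 6 mice for 4 of 9 members (Rela, Nfkbia, Nfkbib and Tnfaip3) and for 4.93% of all tested probes. The gap to the next mouse was 1.14 on the log2 scale for Nfkbia and 0.93 for Tnfaip3, and 0.14 and 0.12 for Rela and Nfkbib.

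Other values moved with the same pair of mice. The summed intensity of 7 keratinocyte markers was 198 and 223 in mutant females 34 and 35 and between 325 and 1185 in the others. Of the 2 tested markers among them, Krt14 was 38.3 and 77.9 in these females and between 166 and 1007 in the others, whereas Krt10 was 150 and 131 in these females and between 90.9 and 131 in the others. Krt1 was detected on no array and Krt5 on 1. The summed macrophage markers were 495 in mouse 34 and 2167 in mouse 35. The summed endothelial markers of mouse 34 were the lowest of all, at 153, and those of mouse 35 were the highest of the mutants, at 299. The part of the state of the cultures, of their cell make-up or of the sex of the mice in these values was not tested, and with 2 mice per group the sex of the Nd2-mutant mice and other differences between their cultures cannot be told apart.

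**Figure D3:**
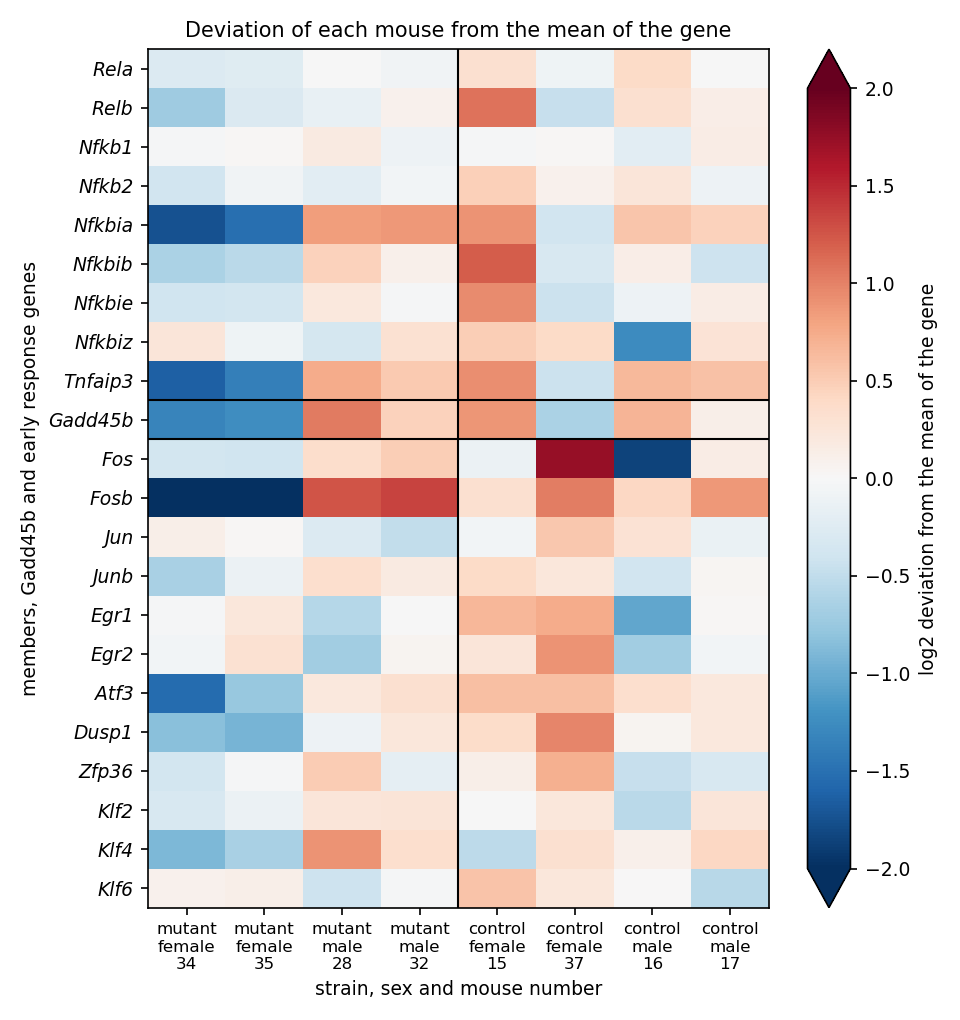
Log2 deviation of each mouse from the mean of the gene over the 8 mice (colour, limited to 2 in either direction) for the 9 tested members, Gadd45b and the 12 tested early response genes (22 rows), with mice as columns ordered by strain and sex. Nfkbia, Tnfaip3, Gadd45b, Fosb and Atf3 were lowest in mutant females 34 and 35. Gadd45b was picked for its likeness to Nfkbia. Relb, Nfkb2, Nfkbia, Nfkbib, Nfkbie, Nfkbiz and Tnfaip3 were highest in control female 15.

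**Figure D4:**
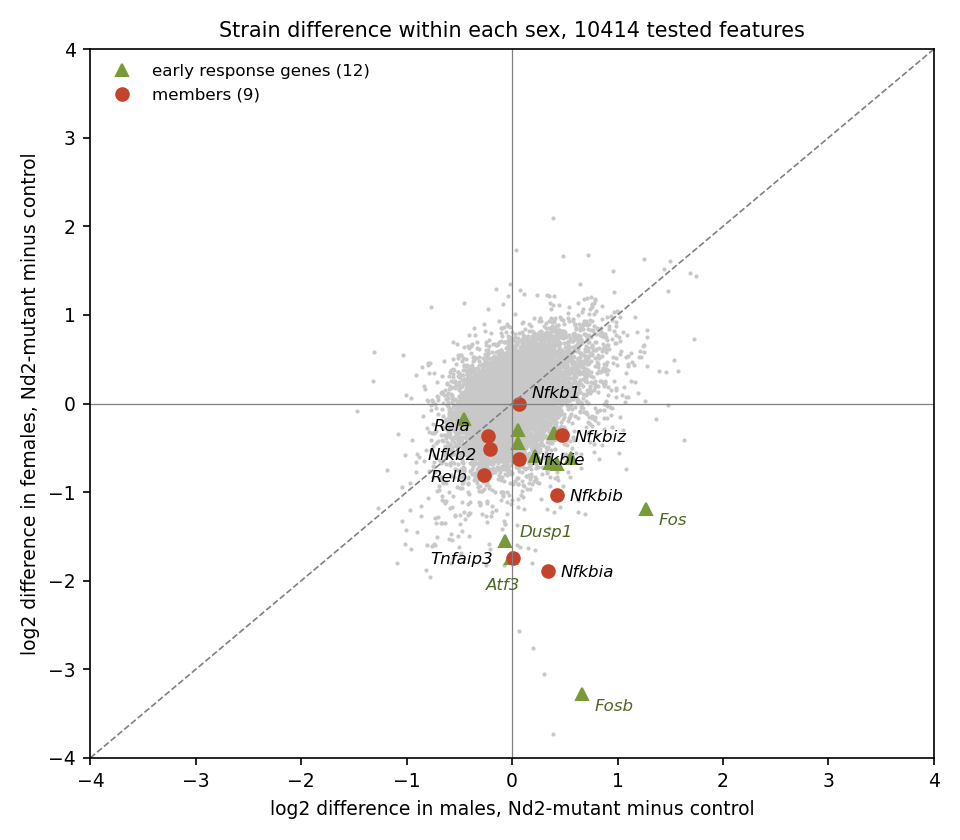
Log2 difference between Nd2-mutant and control fibroblasts in males (x axis) and in females (y axis) for all 10414 tested probes (grey), the 9 members (red) and 12 early response genes (green). The dashed line marks equal differences. All 9 members and 11 of the 12 early response genes lay below it.

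The rest of the pathway was described by 48 other genes, from receptors to kinases and ubiquitin enzymes. 45 of them were on the array and 40 were tested. None passed after adjustment. At an unadjusted p under 0.05, 3 were higher and 1 was lower, 4 of 40 against 7.63% of all tested probes, and the median log2 difference was 0.01. Tnfrsf1a, the main receptor for TNF, had 79.9, 65.8, 77.0 and 71.5 in Nd2-mutant mice 28, 32, 34 and 35. The controls had 15.9, 22.0, 56.3 and 40.2 in mice 15, 16, 17 and 37. All 4 mutants were above all 4 controls, in both sexes. The log2 difference was 0.92 (standard error 0.24, unadjusted p = 0.00275, adjusted p = 0.639 with limma), and the other 2 tested probes of this gene gave 0.92 and 0.88. The probe with 0.88 was detected on 4 mutant and 3 control arrays. It passed the filter through the mutants alone, where it was higher, and so adds no support.

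Rbck1, a subunit of the linear ubiquitin ligase that acts below the TNF receptor, was likewise higher in every mutant (135 to 175) than in any control (96.9 to 130), with a log2 difference of 0.35 (unadjusted p = 0.0335 with limma). Tnfrsf1a and Rbck1 were the 2 of 40 tested pathway genes without overlap between the strains. That is near the share of all tested probes, 4.37%. Il1rap, the accessory chain of the IL-1 receptor, had a difference of 0.40 (unadjusted p = 0.0341 with limma), and its other 3 tested probes lay on the same side, from 0.36 to 0.51. The probe with 0.51 was detected on 4 mutant and 2 control arrays. It passed the filter through the mutants alone, where it was higher, and so adds no support. Cd40, a receptor of the TNF receptor family that feeds the non-canonical pathway, had a difference of -0.63 (unadjusted p = 0.0389 with limma), with -0.69 for its second probe. That second probe was detected on 1 mutant and 4 control arrays. It passed the filter only through the controls, where it was higher, and so adds no support. The adjusted p was 0.639 with limma for Rbck1, Il1rap and Cd40. The kinases at the centre of the pathway showed small differences: the values were 0.15 for Chuk, 0.09 for Ikbkb, -0.08 for Ikbkg, the regulatory subunit of their complex, and 0.22 for Map3k14, the kinase of the non-canonical arm.

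Of 38 known NF-κB targets, 37 were on the array and 23 were tested. Tnf, Il1a, Il1b, Nos2 and Ptgs2 were among the 14 that did not pass the filter on detection. None passed after adjustment. At an unadjusted p under 0.05, 1 was higher and 2 were lower, 3 of 23 against 7.63% of all tested probes, and the median log2 difference was -0.24. That median was 0.04 with array weights and 0.02 without control mouse 15, so its sign rested on that mouse. The cytokine Il6 had 44.3, 100, 104 and 59.8 in the mutants and 140, 102, 151 and 139 in controls 15, 16, 17 and 37, and mutant mouse 34 overlapped control mouse 16. The log2 difference was -0.73 (standard error 0.23, unadjusted p = 0.0104, adjusted p = 0.639 with limma). Lif, a cytokine of the same family, had a difference of -1.04 (unadjusted p = 0.0443 with limma), and -0.71 for its second probe. The survival gene Bcl2l1 was higher in all 4 mutants (31.3 to 37.9) than in any control (9.12 to 30.7), with a difference of 0.48 (unadjusted p = 0.0374 with limma). It was the 1 target counted as higher. With detection required on all 8 arrays, or with the methods' t-test, 0 targets were higher at an unadjusted p under 0.05. Bcl2l1 left the tested probes under that stricter filter. It had passed the main filter through the mutants, where it was higher, and so adds no support. It was also the only target without overlap, 1 of 23 against 4.37% of all tested probes. Other abundant targets overlapped, such as Cxcl1 with 1520 to 3126 in the mutants and 1624 to 4934 in the controls, and Vcam1 with 1070 to 1597 and 726 to 1222.

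**Figure D5:**
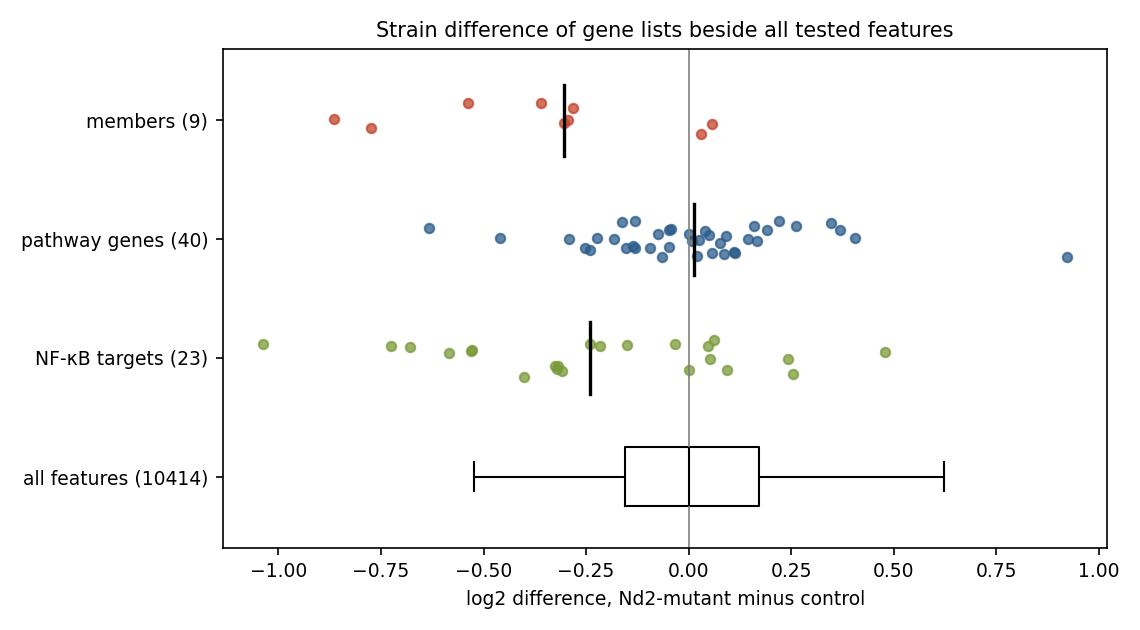
Log2 difference between Nd2-mutant and control fibroblasts (x axis) of the 9 tested members, 40 other pathway genes and 23 NF-κB targets, 1 point per gene with the median as a black line, and of all 10414 tested probes as a box (quartiles -0.16 and 0.17) with whiskers at the 2.5 and 97.5 percentiles (-0.52 and 0.62). The medians were -0.30, 0.01 and -0.24 beside 0.00 for all probes.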

How the data were processed

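Fibroblast RNA of each of the 8 mice was hybridised to 1 Illumina MouseRef-8 v2.0 array. The authors used GenomeStudio to extract the probe intensities, which they quantile normalized and corrected for background. The deposited intensity is linear, from -12.3 to 13935, with 26.2% of values at or below 0. Each deposited detection p-value came from the authors' software. The table deposited as non-normalized holds the same values, so other background corrections or normalizations were not run, and no chip name was at hand for a block. The number of arrays limits the precision. Each p-value sets a difference against the spread between mice. With 1 array per mouse, that spread cannot be told apart from the spread between cultures and arrays.

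Groups and sexes followed the labels. Negative intensities were replaced by 0 and log2(intensity + 16) was analysed, so that differences of dim genes are understated. A probe was tested if its detection p-value was under 0.01 on all 4 arrays of at least 1 strain. Strains were compared with limma 3.58.1 (lmFit, eBayes; R 4.3.3) by a 2-sided test, p-values being adjusted after Benjamini and Hochberg over 10414 probes, with a threshold of 0.05. The interaction with sex was fitted over 4 groups of strain and sex. Nfkb2 was also tested with an exact 2-sided permutation test. The steps were tested on simulated data. A gene of a list was represented by its probe of highest mean. Alternatives changed the amount added, the scale, the detection filter, the test (the methods' t-test, a trend, array weights, sex as a term), the centring and the mice included.

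The members and gene lists were chosen with earlier results of these data known. Named were every member, the pathway and target genes with an unadjusted p under 0.05, cell type and early response genes beside a result, and the 5 probes most like Nfkb2 and Nfkbia. Chuk, Ikbkb, Ikbkg, Map3k14, Cxcl1, Vcam1 and the targets named as not passing the filter were picked for their roles after their values were seen. Promoter windows came from RefSeq (GRCm38.p6) and were matched by symbol.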

Additional observations from a re-analysis of the deposited data

Results flagged for a closer look

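Nfkbiz in control mouse 16, with an intensity of 303 against 905 to 1062 in the other 3 controls, lay apart from its group: the gap to the nearest control, divided by the range of the 4 controls, was 0.870 on the log2 scale. It was 1 of 18 groups of 4 mice examined for the members, and chance sets a mouse apart in about 1 in 20 groups. The log2 difference of Nfkbiz was 0.06 with this mouse and -0.35 without it.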

How the results depend on the processing

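No paired analysis was possible because no mouse number occurs in both strains. Over all probes, 3 were called without a filter on detection and 1 with the methods' t-test, against 0. Without a filter, 1587 probes had an unadjusted p under 0.05 and 746 showed no overlap. Leaving out each mouse in turn gave 0 called probes in each fit, 432 to 1438 probes at an unadjusted p under 0.05 (432 without control mouse 16, 1438 without control mouse 17) and 595 to 1198 without overlap. Among the members, 0 had an unadjusted p under 0.05 with a pseudocount of 50, on the linear scale, with an eBayes trend or with array weights, and 0 to 2 without each mouse in turn (2 without control mouse 37), against 1. Of the pathway genes 2 did on the linear scale and 1 to 4 without each mouse (1 without mutant mouse 32), against 4. Of the targets 1 did with a pseudocount of 50, on the linear scale and with the methods' t-test, and 1 to 4 without each mouse, against 3. The difference between the sexes had 1 member on the linear scale and 2 to 5 without each mouse (5 without control mouse 37), against 3. The fits of the interaction without a mouse were chosen after seeing the data, and each assumes that the lone mouse of a group varies like the others.

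Over all alternatives for single members, 293 of 315 values kept their direction and their side of the adjusted threshold, and Nfkbia without control mouse 37 (male minus female difference 2.87, adjusted p = 0.0328 with limma) passed it. The strain difference changed sign for Nfkb1 with array weights (-0.027) and in females (-0.008), for Nfkbiz on the linear scale (-35.7 intensity units), with array weights (-0.01) and in females (-0.36), for Nfkbib with array weights (0.037), and in males for Nfkbia (0.34), Nfkbib (0.42), Nfkbie (0.065) and Tnfaip3 (0.012). Without each mouse in turn, the strain difference ran from -0.034 to 0.083 for Nfkb1, from -0.51 to 0.05 for Nfkbib and from -0.35 to 0.23 for Nfkbiz, and the male minus female difference from -0.10 to 0.25 for Nfkb1, from -0.069 to 0.338 for Rela and from -0.23 to 1.32 for Relb. The cause of these changes was not tested. Dim members such as Nfkbie, Nfkb2 and Relb lie near background, where intensities limit what can be seen.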
